A study of Citrus maxima with 12 samples.

Results

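Diseased fruit of the pomelo cultivar Jinsha was compared with diseased fruit of the cultivar Taoxi by RNA sequencing. The comparison holds 6 of the 12 libraries analysed from a study of Jinggang honey pomelo and black spot: the 3 whose labels give Jinsha and disease, and the 3 whose labels give Taoxi and disease. The other 6 libraries, 3 of diseased Jinlan and 3 of Taoxi control fruit, entered only alternative fits given at the end, and otherwise serve to show the level of the same genes elsewhere. All libraries were labelled as fruit of Citrus maxima, and the labels give neither the part of the fruit, the time of sampling nor the severity of the lesions. The 6 libraries differ in cultivar and are all diseased, with no control fruit of Jinsha among the libraries analysed, so a standing difference between the cultivars and a different response to the disease cannot be told apart in any value below. In bulk tissue, fewer cells of a type and less RNA per cell cannot be told apart either. The labels call the replicates biosamples, but nothing in them ties the 3 libraries of a group to different fruits or trees. The p-values therefore set a difference only against the spread among these samples, which may be technical in origin.

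Black spot diseases of citrus fruit are fungal diseases of the rind, in which the fungus lives in the surface tissue and leaves dark lesions. Plants are known to meet such fungi with pathogenesis-related proteins, with strengthening of the cell wall by lignin, and with phenylpropanoid and flavonoid compounds, and cultivars of a crop are known to differ both in how strongly they express such genes and in which genes their genomes carry. The deposited table gives gene IDs and values without names, descriptions or positions. Genes are therefore described by their levels, by the size of their differences and by the form of their IDs, only 6 IDs are named, and neither the tissue label nor any defence pathway could be checked against its genes.

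The expression of most genes differed between diseased Jinsha and diseased Taoxi. Levels are the deposited FPKM, which count fragments relative to gene length and to the size of the library. Genes were tested where 3 or more of the 6 libraries reached 1 FPKM. Of these 16753 genes, 6171 (36.8%) were higher and 5390 (32.2%) lower in diseased Jinsha, together 69% of those tested (limma on log2(FPKM + 1), fitted to these 6 libraries, Benjamini-Hochberg adjusted p below 0.05, two-sided). Most of these differences were modest, with 8019 of the 11561 passing genes under 2-fold. The median log2 difference was 0.72 among the higher genes and -0.65 among the lower genes, and the smallest that passed was 0.15 in size, against a median standard error of 0.10 over the genes tested. For 12339 genes (73.7%) every Jinsha library lay on one side of every Taoxi library, 6564 of them with Jinsha above and 5775 with Jinsha below. Of the 11561 passing genes 144 had overlapping groups.

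Differences of at least 2-fold were found for 3542 genes, 21.1% of those tested, with 2036 (12.2%) higher and 1506 (8.99%) lower in diseased Jinsha. All but 2 of them had groups that did not overlap. The excess of higher genes lay among the smaller of these differences. At 4-fold or more, a log2 difference of 2, there were 475 higher and 394 lower genes. From a log2 difference of 3 upward the directions were nearly even, with 127 higher and 126 lower genes at 3 or more and 35 in each direction at 4 or more. At 5 or more there were 10 higher and 8 lower genes. The 10 higher genes had a median level of 111 FPKM in diseased Jinsha and 1.53 FPKM in diseased Taoxi, and the 8 lower genes 1.38 FPKM in diseased Jinsha and 133 FPKM in diseased Taoxi. On log2(FPKM + 1) such a difference requires a high level in 1 of the groups, so these levels follow in part from the cut-off. The ends of the range were a log2 difference of 6.75 in one direction and -6.61 in the other.

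**Figure D1:**
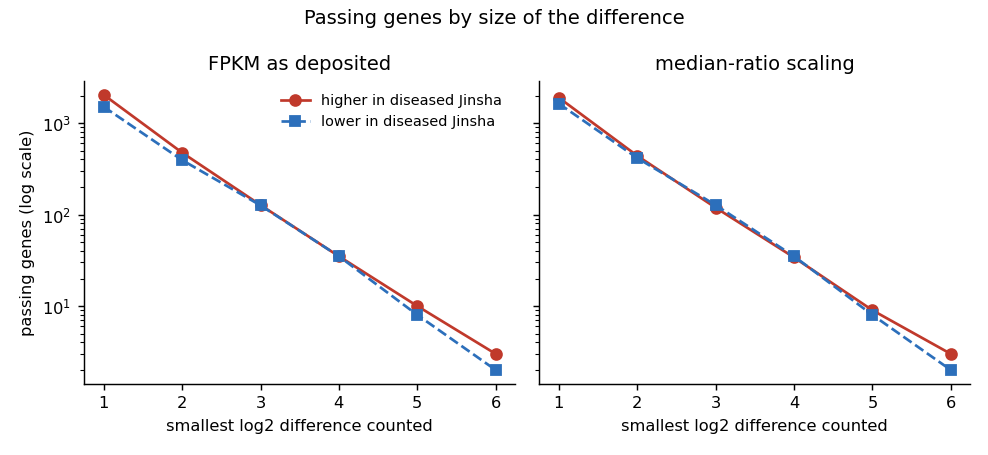
Number of passing genes (log axis) whose log2 difference between diseased Jinsha and diseased Taoxi was at least the value on the horizontal axis, for FPKM as deposited (left) and after median-ratio scaling (right); circles are genes higher and squares genes lower in diseased Jinsha. Higher genes lead at a log2 difference of 1 (2036 against 1506 as deposited, 1894 against 1633 after scaling), and the lines nearly meet from 3 upward.

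Which direction held more genes was sensitive to how the libraries were scaled to each other. The median log2 difference over all genes tested was 0.04 as deposited. After median-ratio scaling, which sets a factor per library from the genes above 0 in all 6 and so centres the differences, it was -0.0063, and 5776 genes (34.5%) were higher and 5913 (35.3%) lower in diseased Jinsha, 69.8% of those tested. Higher genes made up 53.4% of the passing genes as deposited and 49.4% after scaling. No gene passed in opposite directions under these scalings: the 5776 higher and 5390 lower calls were shared, 395 genes were higher only as deposited and 523 lower only after scaling. At 2-fold or more the balance kept its direction, with 1894 genes (11.3%) higher and 1633 (9.75%) lower after scaling.

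On log2(FPKM + 1), which understates the change of low genes, the 5192 genes that did not pass were mostly measured closely. The 95% interval of the log2 difference lay within -0.5 to 0.5 for 3951 of them (76.1%) and within -1 to 1 for 5018 (96.6%). Only 18 had a fitted difference of 2-fold or more that missed the threshold. The genes that did not pass held 28.6%, 28.7% and 28.5% of the summed FPKM in the 3 diseased Jinsha libraries, and 28.7%, 28.6% and 28.0% in the 3 diseased Taoxi libraries.

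The 6 libraries fell into their labelled groups. On log2(FPKM + 1), replicates of diseased Jinsha correlated at 0.991 to 0.993 across genes and those of diseased Taoxi at 0.987 to 0.989, while libraries of different cultivars correlated at 0.857 to 0.867; genes are not independent replicates. The first principal component held 91.1% of the variance, with scores of 61.0 to 63.2 in diseased Jinsha and -63.3 to -61.1 in diseased Taoxi. The median standard deviation of a gene between replicates was 0.094 log2 units in diseased Jinsha and 0.122 in diseased Taoxi, and 37.1% of genes spread more widely in Jinsha. Summed FPKM per library ran from 560349 to 568564 in Jinsha and from 567772 to 577402 in Taoxi. Read numbers per library are unknown, since the values keep no read totals. Among the libraries shown only for their levels, the one labelled Taoxi control 1 went against its label: the genes higher by 2-fold or more in diseased Jinsha, described below, held 13.1% of its FPKM, near the 13.5% to 13.9% of diseased Jinlan and far from the 4.89% and 4.43% of Taoxi controls 2 and 3. Whether it was mislabelled or mixed was not tested, and the Taoxi controls are therefore given library by library, control 1 first.

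The balance of directions changed with the level of the gene. Among 4566 genes with a mean under 5 FPKM over the 6 libraries, 40.7% were higher and 25.4% lower in diseased Jinsha, with a median log2 difference of 0.15. Among 6151 genes from 5 to 20 FPKM, 38.3% were higher and 30.4% lower, with a median of 0.07. The 4893 genes from 20 to 100 FPKM went the other way, with 32.1% higher and 39.8% lower and a median of -0.07. Of the 1143 genes at 100 FPKM or more, 33.7% were higher and 36.0% lower, with a median of -0.04. After median-ratio scaling these medians were 0.11, 0.02, -0.12 and -0.10, in the same order of levels, with the same signs as before. The share that differed 2-fold or more was 25.2% under 5 FPKM, 20.3% from 5 to 20 FPKM, 18.0% from 20 to 100 FPKM and 22.8% at 100 FPKM or more, against 21.1% of all genes tested.

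**Figure D2:**
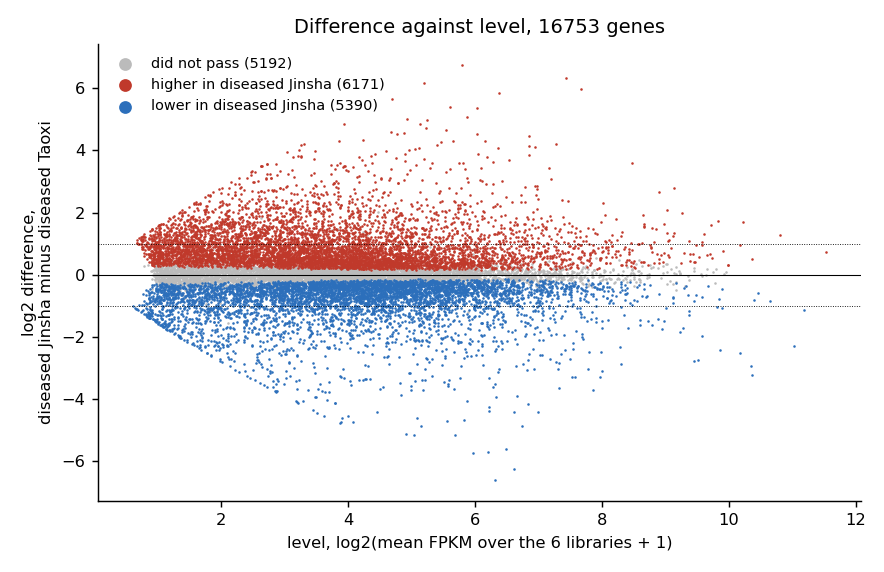
Log2 difference between diseased Jinsha and diseased Taoxi (vertical axis, positive where Jinsha was higher) against log2 of the mean FPKM over the 6 libraries plus 1 (horizontal axis), 1 point per gene; dotted lines mark 2-fold. Passing genes lie on both sides at every level, 6171 above and 5390 below 0, and the 5192 genes that did not pass form the narrow grey band.

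Measures of whole libraries were compared next. IDs at 1 FPKM or more numbered 16331, 16252 and 16260 in the 3 diseased Jinsha libraries, against 15985, 15967 and 16087 in the 3 diseased Taoxi libraries. The groups did not overlap, with means of 16281 ± 43.5 in Jinsha and 16013 ± 64.7 in Taoxi (SD, n = 3 each, exact permutation test, two-sided, p = 0.10, the smallest that 3 against 3 allows). The order depended on the floor. IDs above 0 numbered 22150, 21788 and 22133 in diseased Jinsha and 22120, 22193 and 22196 in diseased Taoxi, with overlapping groups. At 100 FPKM or more every Jinsha library had fewer IDs, 1120, 1129 and 1104 against 1208, 1152 and 1156 in Taoxi. Counts at these other floors were not tested. The concentration of FPKM in few IDs was lower in each Jinsha library than in any Taoxi library. The 100 most abundant IDs of a library held 14.3%, 14.8% and 15.2% of its FPKM in diseased Jinsha, against 15.5%, 15.3% and 15.5% in diseased Taoxi (exact permutation test, two-sided, p = 0.10). The 10 most abundant held 2.99%, 3.17% and 3.24% in Jinsha and 3.95%, 3.95% and 4.03% in Taoxi. With the share held by NewGene IDs, given below, 3 such library measures were tested, and the adjusted p was 0.10 for each.

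The abundant transcripts themselves were partly different ones. Of the 100 IDs with the highest mean FPKM in diseased Jinsha and the 100 highest in diseased Taoxi, 60 were in both lists, 60 in 100 of either. Of the 140 IDs in at least 1 list, 59 were higher and 49 lower in diseased Jinsha and 32 did not pass; 26 of the higher and 26 of the lower IDs differed 2-fold or more. Over all genes tested 36.8% were higher and 32.2% lower, and 21.1% differed 2-fold or more. Among genes at 100 FPKM or more, 22.8% differed 2-fold or more. An ID can enter just 1 list by being higher in that group, which favours IDs that differ. These lists were taken from the levels of the same libraries, so their counts are a description.

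IDs were named among genes that differed at least 2-fold, passed in both scalings and had groups that did not overlap. The lack of overlap in the IDs named as differing is therefore given by the choice. The 2 IDs with the largest excess of mean FPKM in diseased Jinsha over diseased Taoxi were Cg4g009640 and Cg5g039100. Cg4g009640 stood at 2299.7, 2534.5 and 2676.1 FPKM in the 3 diseased Jinsha libraries, against 1419.8, 952.1 and 829.9 FPKM in the 3 diseased Taoxi libraries. The Taoxi libraries differed among themselves more than the Jinsha libraries, but the highest of them was well under the lowest of Jinsha. In rank order of FPKM it was number 2 in every diseased Jinsha library and number 10, 23 and 34 in diseased Taoxi. Its log2 difference was 1.26 ± 0.21 (SE, limma adjusted p = 0.000931). Outside this comparison it stood at 2698.8 ± 24.6 FPKM in diseased Jinlan (SD, n = 3). The 3 Taoxi controls had 2521.4, 1786.9 and 1761.6 FPKM, all of them above every diseased Taoxi library.

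Cg5g039100 was at 1974.1, 1895.2 and 1636.6 FPKM in diseased Jinsha and at 544.9, 561.5 and 569.7 FPKM in diseased Taoxi. Here the Taoxi libraries lay close together and the Jinsha libraries were all well above them. The log2 difference was 1.71 ± 0.11 (SE, limma adjusted p = 8.10e-06), and the rank was 3, 3 and 5 in Jinsha and 85, 74 and 73 in Taoxi. Diseased Jinlan held it at 1351.9 ± 73.8 FPKM (SD, n = 3), between the groups compared. In the Taoxi controls it was at 938.5, 354.7 and 397.0 FPKM, so that control 1 stood above and controls 2 and 3 below diseased Taoxi.

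By the same rule, the 2 IDs with the largest excess of mean FPKM in diseased Taoxi over diseased Jinsha were Cg5g031600 and Cg5g041840. Both were among the 5 most abundant IDs of each diseased Taoxi library. Cg5g031600 was at 742.5, 694.0 and 658.0 FPKM in diseased Jinsha and at 2679.3, 3323.2 and 4501.7 FPKM in diseased Taoxi. The groups did not overlap, and the Taoxi libraries spread over a far wider range than the Jinsha libraries. Its rank was 44, 53 and 61 in Jinsha, against 3, 1 and 1 in Taoxi, and its log2 difference -2.29 ± 0.20 (SE, limma adjusted p = 2.81e-05). Diseased Jinlan held it at 1173.9 ± 206.5 FPKM (SD, n = 3), and the Taoxi controls had 1750.0, 6930.9 and 7735.0 FPKM.

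Cg5g041840 was at 217.4, 238.9 and 320.7 FPKM in diseased Jinsha, against 2778.9, 2383.3 and 2022.9 FPKM in diseased Taoxi. Every Jinsha library was far below every Taoxi library, with a log2 difference of -3.21 ± 0.18 (SE, limma adjusted p = 3.24e-06). Its rank was 387, 336 and 221 in Jinsha and 2, 4 and 5 in Taoxi. Diseased Jinlan held it at 652.1 ± 6.70 FPKM (SD, n = 3). The Taoxi controls had 792.7, 2335.3 and 2172.9 FPKM, with controls 2 and 3 inside the range of diseased Taoxi and control 1 below it. Passing in the same direction after median-ratio scaling was a condition for naming these 4 IDs. Their log2 differences after that scaling were 1.21 for Cg4g009640, 1.66 for Cg5g039100, -2.35 for Cg5g031600 and -3.27 for Cg5g041840.

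For contrast, 2 abundant IDs that did not pass and whose 95% interval lay within -0.5 to 0.5 in both scalings were Cg4g023410 and Cg7g007780. They had the highest mean FPKM of the 3426 genes that met this rule. Cg4g023410 was at 963.8, 1063.7 and 1007.3 FPKM in diseased Jinsha and at 1055.4, 796.1 and 1052.3 FPKM in diseased Taoxi, with overlapping groups and a log2 difference of 0.07 (95% interval -0.25 to 0.40, limma adjusted p = 0.652). Its Taoxi controls stood higher than either, at 1344.2, 1475.2 and 1366.5 FPKM. Cg7g007780 was at 827.2, 968.5 and 1177.9 FPKM in diseased Jinsha and at 1005.8, 970.0 and 908.8 FPKM in diseased Taoxi (log2 difference 0.03, 95% interval -0.31 to 0.37, limma adjusted p = 0.867). Diseased Jinlan held this ID at 531.5 ± 69.6 FPKM (SD, n = 3), below every library of the groups compared.

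**Figure D3:**
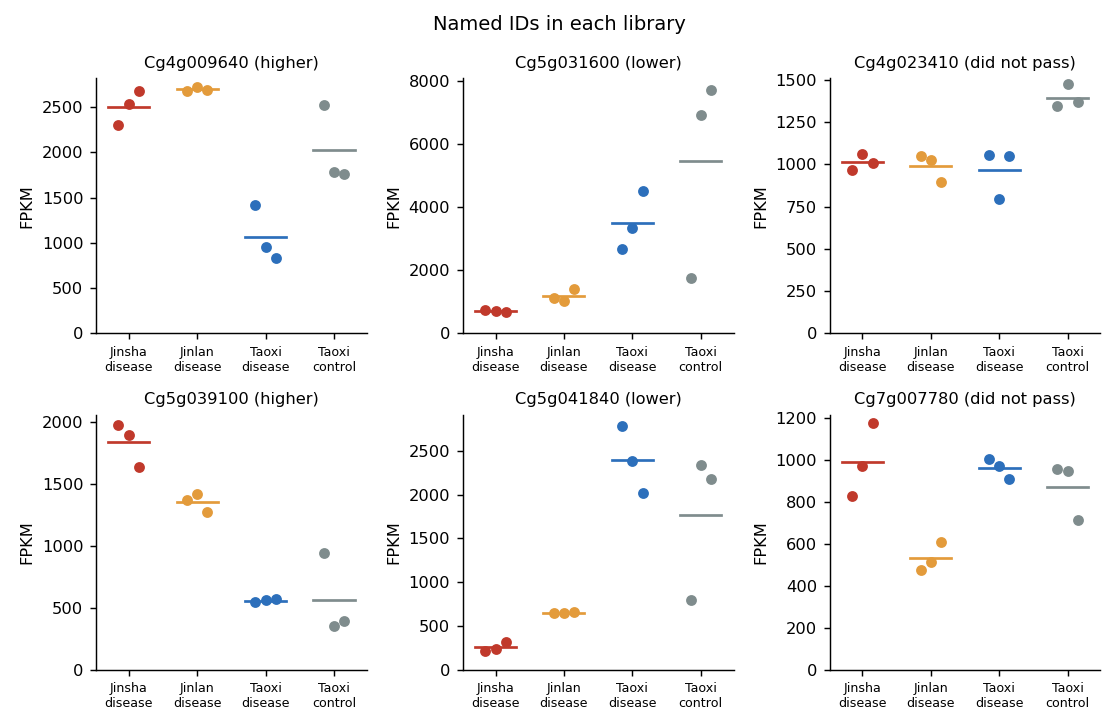
FPKM (linear axis from 0) of the 6 named IDs in every library of the 4 labelled groups; points are libraries and bars group means (n = 3, control 1 included). The upper and lower IDs at left were higher in diseased Jinsha than in diseased Taoxi, those in the middle lower, and those at right did not pass; the library labelled Taoxi control 1 is the leftmost point of its group and lies apart from controls 2 and 3 for the 4 IDs that passed.

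Summed over each list, the genes that differed 2-fold or more held a share of the FPKM that was close between replicates of a diseased group. The 2036 genes higher in diseased Jinsha held 16.8%, 17.0% and 16.9% of the FPKM in diseased Jinsha and 5.42%, 5.05% and 5.17% in diseased Taoxi. The 1506 lower genes held 4.91%, 4.88% and 4.88% in diseased Jinsha and 16.6%, 17.0% and 17.8% in diseased Taoxi. The lists were chosen on these libraries, so the direction is given by the choice and only the size is described. In libraries that did not choose them, the higher genes held 13.5% to 13.9% in diseased Jinlan, 4.89% and 4.43% in Taoxi controls 2 and 3, and 13.1% in the library labelled Taoxi control 1. The lower genes held 6.41% to 6.50% in diseased Jinlan, 19.1% and 19.4% in Taoxi controls 2 and 3, and 8.21% in Taoxi control 1. The library labelled Taoxi control 1 thus stood apart from the other Taoxi libraries in both lists. It took no part in the fit.

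**Figure D4:**
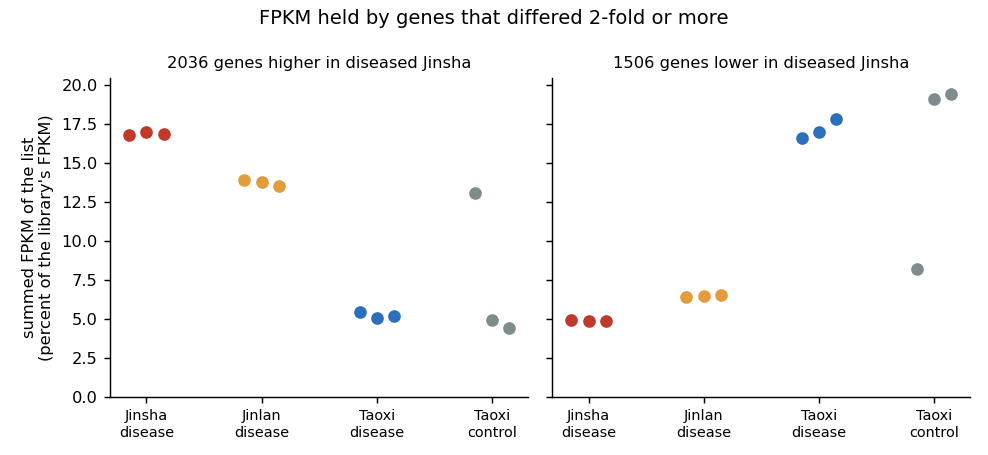
Percent of each library's summed FPKM held by the 2036 genes higher (left) and the 1506 genes lower (right) by at least 2-fold in diseased Jinsha; each point is a library. In the left panel diseased Jinsha lies at 16.8% to 17.0%, diseased Jinlan at 13.5% to 13.9% and diseased Taoxi at 5.05% to 5.42%, and 1 Taoxi control lies at 13.1% while the others are under 5%.

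Median levels of the lists were taken in the same 12 libraries. The median log2(FPKM + 1) of the 2036 higher genes was 3.82 to 3.87 in diseased Jinsha, 3.56 to 3.57 in diseased Jinlan, and 2.05 to 2.13 in diseased Taoxi, and 3.45, 1.86 and 1.82 in Taoxi controls 1, 2 and 3. The median of the 1506 lower genes was 2.55 to 2.57 in diseased Jinsha, 2.70 to 2.74 in diseased Jinlan, and 4.26 to 4.37 in diseased Taoxi, and 3.19, 4.31 and 4.35 in the Taoxi controls. Over all 16753 genes tested the medians lay between 3.57 and 3.81 in the 12 libraries. The comparisons of diseased Jinlan and of control Taoxi with diseased Taoxi share libraries with this one, so only levels are set side by side.

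A small group of genes was listed at 0 in one cultivar. In all 3 diseased Jinsha libraries 34 IDs had 1 FPKM or more while all 3 diseased Taoxi libraries listed them at 0, and 59 IDs showed the reverse, being at 0 throughout diseased Jinsha and reaching 1 FPKM in each diseased Taoxi library. The IDs of both lists all entered the test and passed, since the lists are made of separated values. An exact 0 without read counts can be a failed estimate, so no fold is given for them. With a floor of 0.5 FPKM in the cultivar where they were found, 101 IDs were at 0 in diseased Jinsha and 58 in diseased Taoxi. With a floor of 5 FPKM 17 were at 0 in diseased Jinsha and 11 in diseased Taoxi. IDs at 0 in diseased Jinsha were the more numerous at these floors.

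The 34 IDs at 0 in diseased Taoxi were mostly of low level in diseased Jinsha, with a median of the group means of 3.55 FPKM and a range of 1.20 to 71.3 FPKM, and 12 were at 5 FPKM or more. In diseased Jinlan 29 of them were at 1 FPKM or more in all 3 libraries and none was at 0 in all 3. In Taoxi controls 2 and 3, 33 and 32 of them were at 0. In the library labelled Taoxi control 1, 2 were at 0 and 30 were at 1 FPKM or more, with a median of 2.72 FPKM.

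The 59 IDs at 0 in diseased Jinsha had a median group mean of 3.09 FPKM and a range of 1.03 to 20.7 FPKM in diseased Taoxi, and 21 were at 5 FPKM or more. In diseased Jinlan 45 of them were at 0 in all 3 libraries and none was at 1 FPKM or more in all 3. Taoxi controls 2 and 3 had 52 and 51 of them at 1 FPKM or more, with medians of 3.93 and 3.75 FPKM, so that most were found in Taoxi in both states. Taoxi control 1 had 16 of them at 1 FPKM or more and a median of 0.522 FPKM.

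**Figure D5:**
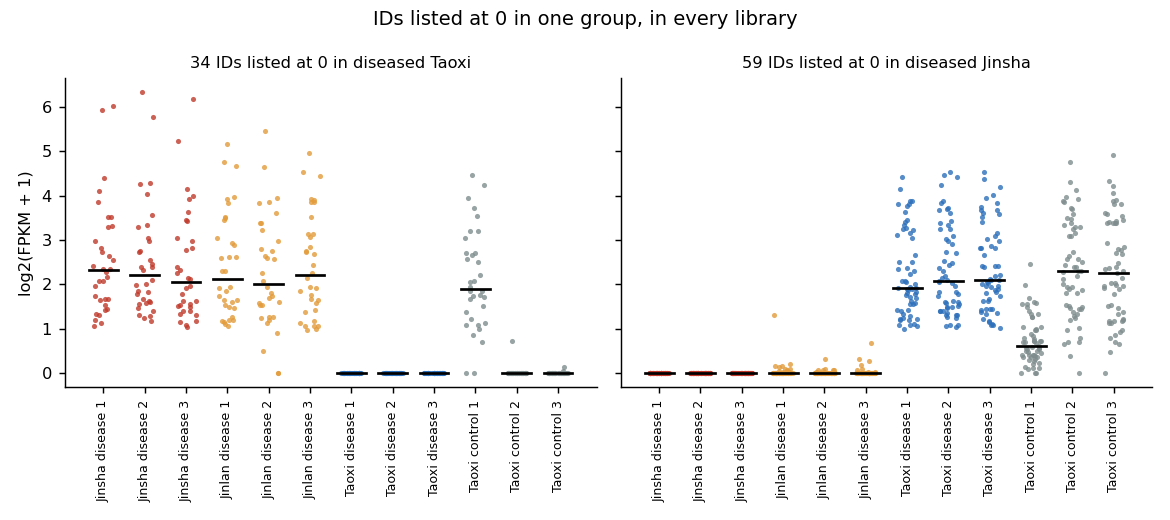
Level, log2(FPKM + 1), of the 34 IDs listed at 0 in diseased Taoxi (left) and the 59 listed at 0 in diseased Jinsha (right) in each of the 12 libraries; points are IDs, spread sideways for visibility, and bars are medians. Diseased Jinlan has values close to those of diseased Jinsha in both panels, Taoxi controls 2 and 3 lie near diseased Taoxi, and Taoxi control 1 has values above 0 for all but 2 IDs of the left panel and all but 3 of the right.

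The IDs fall into 11 classes by their form, and the shares in most of them were close to those over all genes. Cg1g to Cg9g and CgUng are the numbered classes, and NewGene IDs carry a running number of their own. In Cg1g to Cg9g the share of tested genes that were higher in diseased Jinsha ran from 34.8% (Cg4g) to 39.5% (Cg8g), against 36.8% of all genes tested, and the share that were lower from 30.6% (Cg2g and Cg8g) to 34.9% (Cg4g), against 32.2%. Their medians lay between -0.004 in Cg4g and 0.08 in Cg2g on the log2 scale. Differences of 2-fold or more ranged from 18.2% of 2724 tested Cg5g genes to 22.5% of 1530 Cg1g genes, against 21.1% of all genes. Of 2076 CgUng IDs 399 (19.2%) were tested, against 51.0% of all IDs, with 36.8% higher and 27.6% lower.

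Which direction led within a class depended on the scaling. As deposited, lower genes were the more numerous in NewGene IDs and, by 1 gene, in Cg4g. After median-ratio scaling they were the more numerous in NewGene (318 higher, 393 lower), Cg4g (476 and 548), Cg1g (516 and 565), Cg5g (943 and 949), Cg7g (476 and 542) and Cg9g (440 and 493). Of 1041 tested NewGene IDs, 333 (32.0%) were higher and 363 (34.9%) lower in diseased Jinsha, with a median log2 difference of -0.03 as deposited and -0.08 after median-ratio scaling. In this class 26.3% differed 2-fold or more, with 137 in each direction. Among NewGene IDs with a mean under 5 FPKM the directions were even, with 181 higher and 182 lower of 563, while the other IDs of that level had 1677 higher and 978 lower of 4003. NewGene IDs held 3.32%, 3.29% and 3.31% of the FPKM in diseased Jinsha, against 3.55%, 3.60% and 3.53% in diseased Taoxi, and the groups did not overlap (exact permutation test, two-sided, p = 0.10, adjusted p = 0.10). They were also common among the IDs listed at 0, being 11 of the 34 at 0 in diseased Taoxi and 17 of the 59 at 0 in diseased Jinsha, whereas they were 1041 of the 16753 genes tested. The listed IDs were mostly low, and NewGene IDs were 563 of the 4566 tested genes with a mean under 5 FPKM.

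The place of the differing genes in the ID numbering was also examined. Among 15702 pairs of tested IDs that follow each other within a numbered class, NewGene left out, 1898 had a first ID that was higher by at least 2-fold in diseased Jinsha, and in 399 of these (21.0%) the next ID was too, against 12.1% of all next IDs. For the lower genes the next ID was also lower by 2-fold or more in 210 of 1369 pairs (15.3%), against 8.71% of all next IDs. Of the 59 IDs listed at 0 in diseased Jinsha, 12 were next to another of them in the numbering of the table, and 2 of the 34 listed at 0 in diseased Taoxi. Unlike the pairs above, these counts took in all IDs of the table, with NewGene and untested IDs. No share over all IDs was computed beside them, so they only describe the lists. Whether the numbering follows the order of genes along the chromosomes is not given in the sources used here. Neighbouring IDs can also be related copies or overlapping genes between which reads are divided, and the part of this in the counts was not tested.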

How the data were processed

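Total RNA of pomelo fruit was sequenced; RNA came from an RNeasy Mini Plus kit and libraries from a SMARTer mRNA-seq kit, per the labels' protocols. The authors deposited 1 table of FPKM values for 32863 gene IDs. Which aligner, counting tool, build and annotation were used is not given in the sources used here. No reference was used. Columns were matched to samples by title, and 6 columns that match no labelled sample were not used. Whole reads were looked for in the low values: the log2 ratio of 2 replicates, over IDs under 0.3 FPKM in both, put at most 1.87% of IDs into any bin of width 0.02 in 6 pairs of libraries, so reads were not recovered, depth is unknown and no counting interval is given. In the 6 libraries 8102 IDs were at 0 throughout, and 18 IDs above 0 repeated the values of another ID, none of them tested.

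The filter kept genes that reached 1 FPKM in 3 libraries or more. Values were taken as log2(FPKM + 1), which understates the change of low genes, and fitted with 1 mean per group by limma 3.58.1 (R 4.3.3, empirical Bayes, trend in the variance), as deposited and after median-ratio scaling. The test was checked on simulated data. Single library measures were compared by exact permutation. Named IDs had to pass in both scalings with a difference of 2-fold or more and groups that did not overlap, and were the 2 with the largest difference in mean FPKM in each direction; 2 abundant IDs that did not pass were added. The groups compared and the lists were chosen with earlier results of these data known. Figures were drawn with matplotlib 3.10.9. The alternatives tried are listed with the closing results.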

Additional observations from a re-analysis of the deposited data

How the results depend on the processing

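The fit was repeated with pseudocounts of 0.1 and 0.5, without a filter and with a filter at 5 FPKM, with median-ratio, upper-quartile and quantile scaling, rescaled to TPM, over the 9 diseased and over all 12 libraries, with the replicate number as a block, with a robust prior, and leaving out each library in turn on the same genes. The number of passing genes stayed within 1.5 times 11561 in every one of these, from 9005 with the filter at 5 FPKM, which tested 12634 genes, to 13228 without a filter, which tested 24761. Leaving out 1 library gave 10463 to 11462 passing genes, and 3525 to 3616 at 2-fold or more. The 3542 genes at 2-fold or more became 4489 with a pseudocount of 0.1, 4034 with 0.5, 3971 rescaled to TPM and 2666 with the filter at 5 FPKM. No passing gene passed in the opposite direction under any of them. The fit of all 12 libraries, which takes in the library labelled Taoxi control 1, kept 9877 of the 11561 calls. Same-numbered libraries had correlations of deviations of -0.13, 0.02 and -0.19, and differently numbered libraries of -0.036 to 0.19. Whether a replicate number marks a shared fruit, tree or day was not tested. With the replicate block 10948 genes passed.

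Among passing genes, the share higher in diseased Jinsha, 53.4%, depended on the setting. It was 49.4% with median-ratio scaling, 49.5% with quantile normalization, 50.8% in the fit of all 12 libraries, 51.4% with the filter at 5 FPKM, 52.2% with upper-quartile scaling and 54.7% rescaled to TPM, and 52.5% to 54.2% leaving out 1 library. The median log2 difference, 0.04, was -0.0063 with median-ratio scaling, -0.014 with quantile normalization, 0.012 without a filter, 0.016 with the filter at 5 FPKM and 0.061 rescaled to TPM; leaving out 1 library gave 0.031 to 0.050. Scaling factors set this centre by their construction. The cause of the other shifts was not tested. The 6 named IDs stayed on their side of the threshold in all 18 alternatives. For those that passed, doing so with median-ratio scaling was a condition of their choice. Log2 differences were 1.10 to 1.49 for Cg4g009640, 1.65 to 1.83 for Cg5g039100, -2.47 to -2.10 for Cg5g031600 and -3.38 to -3.08 for Cg5g041840.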
